A study of Homo sapiens with 24 samples.

Results

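The antisense transcripts described here are the genes whose symbol ends in -AS1, the suffix given to the first antisense RNA named for a known gene. A member had 50 or more reads in at least 4 of the 24 libraries, and ZNF22-AS1 and GAS6-AS1 were left out by name. This rule gave 440 transcripts, out of 1595 symbols ending in -AS1 and 60563 named genes in the count table. Each was set beside its sense gene, the gene of the symbol before -AS1, which was in the table for 438 members (not for HOXB-AS1 and MYL12-AS1). The members were thus chosen by their read counts, and their detection is no result. Of the 440 members, 222 reached 50 reads in all 24 libraries, and 9 did so in exactly 4. Just inside the rule were ADAMTSL4-AS1, DSP-AS1 and AP1G2-AS1, with median counts of 23.5, 29.5 and 11 over the libraries. Just outside were 16 transcripts with 50 reads in 3 libraries, among them ZMYM4-AS1 (median 18.5), ID2-AS1 (19.0) and FOXP4-AS1 (29.5). AP1G2-AS1 was the only member whose libraries with 50 reads all came from a single group, the vector control. ADAMTSL4-AS1 reached 50 reads in control libraries and in the library left out of the comparisons (below), and in no compared library of a Δ133p53 line. By either of its labels, the library left out is of a Δ133p53β line. A further 13 members had no control library with 50 reads, among them DSP-AS1, ZNF45-AS1 and ENTPD3-AS1. For these members the rule itself favoured a difference from control in the direction described. ZNF793-AS1 and BCAN-AS1 had 50 reads in no library of Δ133p53β5 or Δ133p53β10. The same held for TTN-AS1 and NNT-AS1 in Δ133p53α1, RHPN1-AS1 and ICAM4-AS1 in Δ133p53α2 and DNAAF3-AS1 in Δ133p53β5. These passed through libraries of other groups, so their lower level in those lines, described below, is not independent of the rule.

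NCI-H1299 is a non-small cell lung cancer cell line without p53, and each line studied here was made from it by plasmid. Poly(A) RNA was sequenced from cells carrying the vector only, from 3 clones stably expressing Δ133p53α (Δ133p53α1, Δ133p53α2 and Δ133p53α8) and from 2 clones stably expressing Δ133p53β (Δ133p53β5 and Δ133p53β10). The comparison asks how these amino-terminally shortened p53 isoforms change gene expression in cells that lack the full-length protein. There were 4 libraries each of the control, Δ133p53α1, Δ133p53α2, Δ133p53α8 and Δ133p53β10 and 3 of Δ133p53β5. A further library, labelled as the fifth of Δ133p53β10 but headed as the fourth of Δ133p53β5 in the table, was left out of the comparisons. Each line is 1 clone and the control is 1 line, so the effect of an isoform and of the choice of a clone cannot be told apart. The labels do not say whether libraries of a line came from separate cultures, and the p-values measure the spread between these libraries only. In bulk RNA, fewer cells of a type and less RNA per cell cannot be told apart.

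Library totals ranged from 21531599 to 25381731 reads. Libraries of every line fell into sets that differed in the trend of their counts with gene length, 12 with a positive and 12 with a negative rank correlation (-0.367 to 0.412). Both sets were present in all 6 groups, and calls lost or gained with the set as a term are given below. KRT8, KRT18, VIM and CDH2, markers of the carcinoma line, had mean levels of 577, 678, 3752 and 22.4 CPM, the read count scaled to a common library size, in control. EPCAM, CDH1, NKX2-1 and NAPSA never exceeded 14 reads in a library. The leukocyte genes PTPRC and CD3E and the erythroid HBB had 0 reads in every library, a count that allows up to 3. Other markers of other cells had some reads. The highest library had 41 reads of COL1A1 and 3 of COL3A1 (fibroblasts), 17 of PECAM1 and 4 of CDH5 (endothelium), and 2 of ALB (hepatocytes).

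Natural antisense transcripts are long noncoding RNAs transcribed from the strand opposite another gene. Some start head-to-head with the sense gene from a shared promoter region, whereas others start inside or beyond the sense gene and run through its exons. Known examples recruit chromatin regulators to the locus, pair with the sense RNA or interfere with its transcription, and many are kept low by the nuclear exosome.

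The GENCODE version 44 annotation of GRCh38 located 434 members, of which 432 were long noncoding RNAs and 2 were annotated as pseudogenes. Positions of both genes were found for 430 pairs, and 432 sense genes were protein coding. In 103 pairs the genes stood head-to-head on opposite strands with starts at most 1000 bases apart. In a further 326 pairs the gene bodies overlapped with starts farther apart, and 1 pair did not overlap. Exonic bases were shared by 378 pairs and were not shared by 52.

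Promoter windows are printed for 3 of the head-to-head pairs described below, NNT, TRIM52 and ZNF793. The RHPN1 pair was left out, and BCAN-AS1 had no promoter window. How far the fold changes within a pair differed was no criterion. Each runs 5′ to 3′ on the strand of its own gene from 250 bases before to 50 bases after the RefSeq start (GRCh38.p14). Capitals mark 4 motifs searched on both strands: the TATA box TATAAA, the CCAAT box CCAAT, the GC box GGGCGG and the ETS core CCGGAA, found in 11.5%, 34.6%, 45.0% and 17.2% of all 35116 promoter windows. NNT-AS1 lies on the minus strand of chromosome 5 and its window at chr5:43603181-43603480. NNT lies on the plus strand at chr5:43602930-43603229. TRIM52-AS1 lies on the plus strand at chr5:181260962-181261261 and TRIM52 on the minus strand at chr5:181261094-181261393. ZNF793-AS1 lies on the minus strand at chr19:37507038-37507337 and ZNF793 on the plus strand at chr19:37506689-37506988.
NNT-AS1: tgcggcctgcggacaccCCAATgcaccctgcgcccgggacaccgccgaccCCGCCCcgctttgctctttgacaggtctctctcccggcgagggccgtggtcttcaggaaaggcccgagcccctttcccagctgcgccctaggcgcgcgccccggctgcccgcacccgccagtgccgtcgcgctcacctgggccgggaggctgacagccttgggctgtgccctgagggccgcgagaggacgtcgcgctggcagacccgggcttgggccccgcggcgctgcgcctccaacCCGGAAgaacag
NNT: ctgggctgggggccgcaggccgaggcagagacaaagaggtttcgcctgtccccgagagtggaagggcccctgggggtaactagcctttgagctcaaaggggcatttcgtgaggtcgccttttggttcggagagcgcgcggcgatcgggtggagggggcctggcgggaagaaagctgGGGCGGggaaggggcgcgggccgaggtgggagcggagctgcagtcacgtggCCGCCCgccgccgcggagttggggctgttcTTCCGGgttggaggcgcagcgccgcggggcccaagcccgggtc
TRIM52-AS1: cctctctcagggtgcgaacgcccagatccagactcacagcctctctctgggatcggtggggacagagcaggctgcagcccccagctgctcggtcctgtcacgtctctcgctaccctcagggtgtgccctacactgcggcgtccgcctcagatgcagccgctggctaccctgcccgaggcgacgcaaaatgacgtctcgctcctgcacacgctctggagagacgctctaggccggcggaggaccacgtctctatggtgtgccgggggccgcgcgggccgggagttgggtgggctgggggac
TRIM52: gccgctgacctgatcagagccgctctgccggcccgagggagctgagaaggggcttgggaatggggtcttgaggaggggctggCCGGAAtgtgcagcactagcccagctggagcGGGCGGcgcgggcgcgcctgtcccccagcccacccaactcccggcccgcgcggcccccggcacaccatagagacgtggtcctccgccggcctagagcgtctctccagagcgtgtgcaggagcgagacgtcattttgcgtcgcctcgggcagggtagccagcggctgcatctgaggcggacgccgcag
ZNF793-AS1: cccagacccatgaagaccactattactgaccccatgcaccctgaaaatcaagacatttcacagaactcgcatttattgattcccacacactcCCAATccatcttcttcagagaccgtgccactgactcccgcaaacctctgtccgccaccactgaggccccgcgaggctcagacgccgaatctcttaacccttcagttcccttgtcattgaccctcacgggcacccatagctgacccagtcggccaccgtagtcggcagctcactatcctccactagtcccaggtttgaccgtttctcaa
ZNF793: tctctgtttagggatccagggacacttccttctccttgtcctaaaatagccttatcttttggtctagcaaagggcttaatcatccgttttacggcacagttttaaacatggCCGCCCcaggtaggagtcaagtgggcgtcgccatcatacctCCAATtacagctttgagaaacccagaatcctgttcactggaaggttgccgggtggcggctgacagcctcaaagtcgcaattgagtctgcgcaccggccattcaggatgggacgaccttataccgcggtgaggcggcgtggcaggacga

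The TRIM52 windows overlapped by 168 bases and the NNT windows by 49, whereas those of ZNF793 did not overlap. The window of TRIM52-AS1 held none of the 4 motifs, and that of TRIM52 held 1 GC box and 1 ETS core. NNT-AS1 and NNT held 3 matches each, and no window of these 6 held TATAAA. The GC content was 71% in TRIM52 and 68% in TRIM52-AS1, 74% in NNT-AS1 and 71% in NNT, but 54.3% and 53% in ZNF793-AS1 and ZNF793. The median over all windows was 58.7%, and over the 377 windows of 318 members it was 63.3%. A match is a description of these letters and not a site of binding.

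Members were expressed at lower levels than their sense genes. In control the median level of a member was 5.27 CPM (range 0.407 to 852), and that of a sense gene 31.2 CPM. Per kilobase of exon, the medians were 1.95 CPM for members and 5.28 CPM for sense genes. Together the 440 members took 0.831% ± 0.0786 (SD, n = 4) of the reads in control. Among the Δ133p53α clones the share was 0.763% ± 0.0298 (α1), 0.757% ± 0.0275 (α2) and 0.733% ± 0.0342 (α8), and among the Δ133p53β clones 0.743% ± 0.00631 (β5, n = 3) and 0.757% ± 0.0238 (β10). The highest control library, replicate 3 with 0.948%, stood apart from the other 3 (0.779% to 0.801%), and the groups overlapped in Δ133p53α1, Δ133p53α2, Δ133p53α8 and Δ133p53β10.

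Differential expression was tested over 18295 genes, all 440 members included, with edgeR's quasi-likelihood test. A call required a log2 fold change of 1.5 or more in size and a false discovery rate (Benjamini-Hochberg adjusted p over all tested genes) below 0.05. For Δ133p53α1, 3 members rose and 4 fell, together 1.59% of the members against 2.58% of all genes (1.04% higher and 1.54% lower). For Δ133p53α2, 2 rose and 5 fell, or 1.59% against 2.81% of all genes (0.978% higher and 1.83% lower). For Δ133p53α8, 2 rose and 4 fell, or 1.36% against 2.53% (0.984% higher and 1.55% lower). For Δ133p53β5, 5 rose and 8 fell, or 2.95% against 4.27% (1.31% higher and 2.96% lower). For Δ133p53β10, 10 rose and 7 fell, or 3.86% against 4.73% (1.76% higher and 2.97% lower). The members' shares were not tested against those of all genes. At an adjusted p under 0.05 with any fold there were 16, 19, 13, 27 and 34 members, beside 4.83%, 5.28%, 4.51%, 8.03% and 9.81% of all genes. Single libraries moved these counts: without Δ133p53α1 replicate 1, 37 members and 1606 genes (instead of 472) were called in that line, and without Δ133p53β10 replicate 1, 28 members and 1301 genes (instead of 866) were called in that line. The median log2 fold change over members lay between -0.08 and 0.01 in the 5 lines, beside -0.08 to 0.01 over all tested genes. Every line was set against the same 4 control libraries.

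Altogether 27 members were called in at least 1 comparison, and no member was called in all 5 lines. With the library set as a term this changed: AP1G2-AS1 gained a call in Δ133p53α1 and ADAMTSL4-AS1 in Δ133p53α2 and Δ133p53β10, so that both were called in every line. Both had passed the count rule without a compared library of any Δ133p53 line, so the rule favoured their lower level in the lines. ADAMTSL4-AS1 passed it only with the library left out. The library set as a term gave 7, 8, 7, 15 and 18 called members in the 5 lines. No share over all genes is set beside these counts, so they are no result about the members. Other gains were DSP-AS1 in Δ133p53α8, CBR1-AS1 in Δ133p53β5, DNAAF3-AS1 in Δ133p53β10, and TRHDE-AS1, CBR3-AS1 and PAPLN-AS1 in both Δ133p53β lines. PSMG3-AS1 was gained in Δ133p53α1 and Δ133p53β5 and SLC9A3-AS1 in Δ133p53β10. Of the 417 tested sense genes 7, 6, 6, 12 and 11 were called in the 5 lines, in the order above. Both genes of a pair were called in 3, 3, 4, 6 and 6 pairs, always in the same direction and never in opposite directions. Each of these pairs shared exonic bases, on which reads of both genes cannot be told apart (below). Their common direction is therefore no independent evidence for either gene. The antisense transcript alone was called in 3, 3, 1, 5 and 8 pairs with a tested sense gene, and the sense gene alone in 4, 3, 2, 6 and 5.

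**Figure D1:**
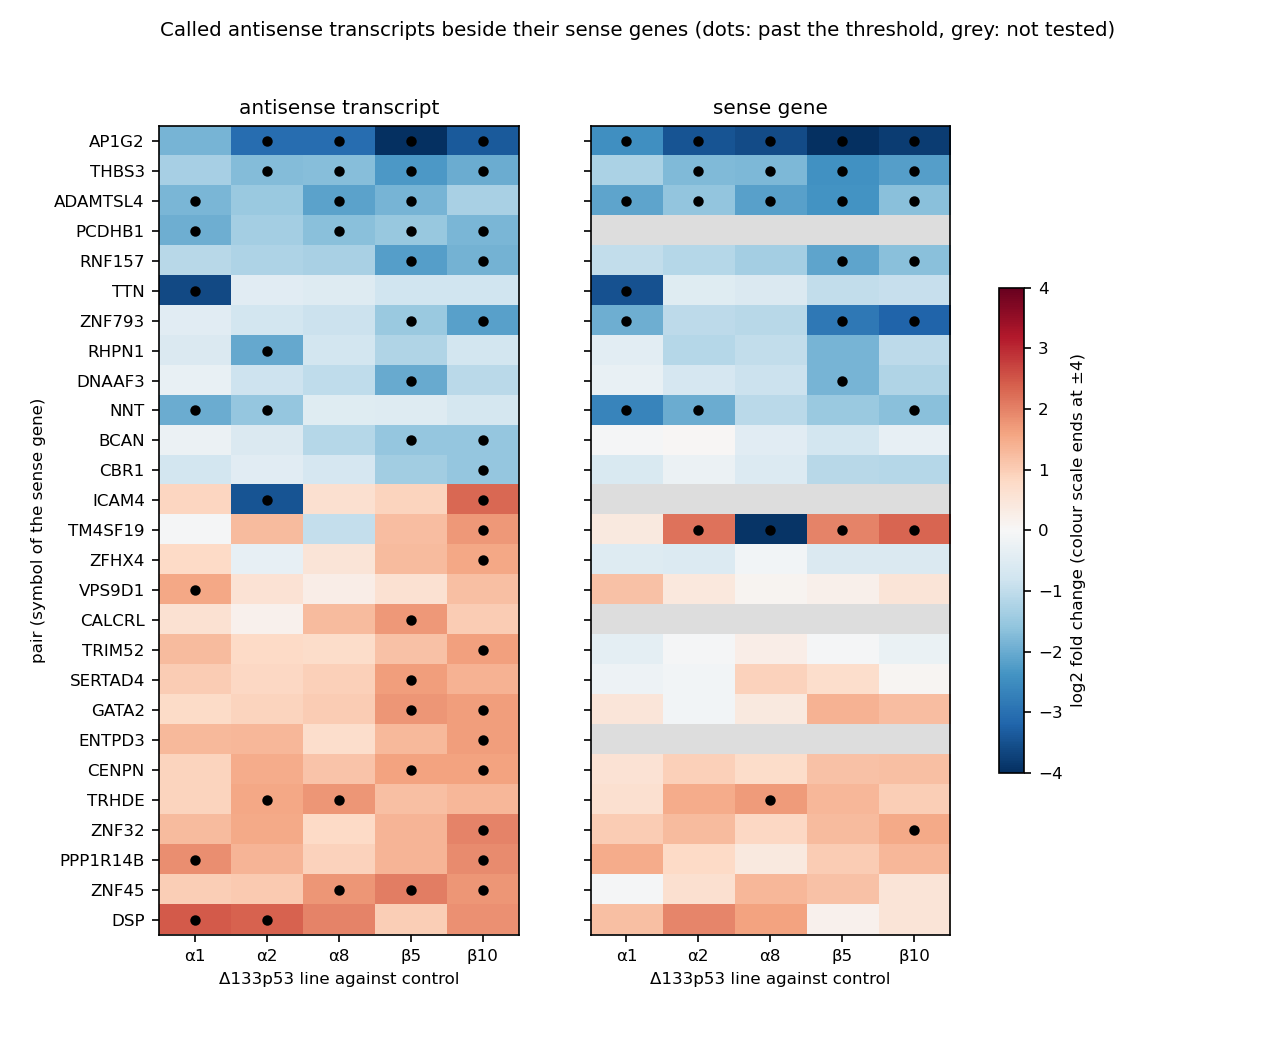
Log2 fold change against control of the 27 called antisense transcripts (left) and of their sense genes (right) in the 5 Δ133p53 lines, by colour. Black dots mark calls, grey marks the 4 sense genes that were not tested, and the colour scale ends at 4 in each direction. Rows at the top were lower in the lines and rows at the bottom higher, and both genes of the AP1G2, THBS3, ADAMTSL4 and RNF157 pairs were lower in every line.

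AP1G2-AS1 had the largest falls among the called members in Δ133p53α8, Δ133p53β5 and Δ133p53β10. It is on chromosome 14 (23561097 to 23568073, plus strand), and 83.3% of its exonic bases are also exonic in AP1G2, which encodes the gamma-2 subunit of an AP-1 adaptor complex of vesicle transport. Reads were 136, 50, 192 and 50 in control, 19, 19, 15 and 40 in Δ133p53α1, 15, 4, 9 and 16 in Δ133p53α2 and 6, 26, 4 and 10 in Δ133p53α8. They were 1, 5 and 4 in Δ133p53β5 and 9, 11, 5 and 11 in Δ133p53β10. Every library of the 5 lines was below every control library, which restates how it passed the rule, with 50 reads in the 4 control libraries only. Its log2 fold change was -3.06 ± 0.588 (SE; adjusted p = 0.00226, edgeR) for Δ133p53α2 and -3.04 ± 0.586 (0.00267) for Δ133p53α8. For the Δ133p53β5 clone it was -4.76 ± 0.756 (0.000368), and for Δ133p53β10 -3.37 ± 0.600 (0.000816). In Δ133p53α1 it was -1.85 and missed the threshold (adjusted p = 0.0556). As noted above, the rule kept AP1G2-AS1 through the control libraries alone, so its lower level in the lines was favoured by the rule. Its fold changes and adjusted p-values are therefore no independent evidence of a fall. The rule did not use the count of AP1G2, but reads on the shared exonic bases cannot be told apart (below). The values of AP1G2 are therefore not independent of those the rule used. AP1G2 fell in every line (-2.45, -3.44, -3.57, -4.55 and -3.80 on the log2 scale). Its control reads of 288, 146, 418 and 125 were all above the 55 reads of the highest library of a line.

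THBS3-AS1 runs through THBS3, the gene of the matrix glycoprotein thrombospondin 3, and shares 43.8% of its exonic bases with it (chromosome 1, 155194996 to 155205495, plus strand). It had 382, 183, 649 and 202 reads in control, and from 68 to 87 reads in Δ133p53β10 and 54 to 68 in Δ133p53β5. In CPM, all libraries of Δ133p53α2, Δ133p53α8, Δ133p53β5 and Δ133p53β10 were below all control libraries, whereas Δ133p53α1 replicate 4 (9.32) was above control replicates 2 (7.96) and 4 (8.73). It fell in Δ133p53α2 (-1.73 ± 0.375, adjusted p = 0.00652), Δ133p53α8 (-1.70 ± 0.375, 0.00849), Δ133p53β5 (-2.30 ± 0.428, 0.00156) and Δ133p53β10 (-2.0 ± 0.379, 0.00146), and THBS3 fell in the same 4 lines (-1.76, -1.80, -2.43 and -2.19). In Δ133p53α1 the values were -1.32 (adjusted p = 0.0433) and -1.27 (0.049), short of the fold threshold. Control replicate 3 was the highest library for both genes, and without it the THBS3-AS1 log2 fold change was -1.29 in Δ133p53α2 (adjusted p = 0.0425) and -1.26 in Δ133p53α8 (0.0605), and neither was called.

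ADAMTSL4-AS1, opposite the 3′ part of ADAMTSL4, shares 38.5% of its exonic bases with this gene of a secreted protein that binds fibrillin microfibrils. With ADAMTSL4 included, 87.3% lie in exons of another gene. Its reads were 77, 59, 158 and 39 in control and at most 40 in a compared library of a line. The lowest control library thus overlapped the highest of Δ133p53α2 and Δ133p53β10. The library left out had 56 reads. It fell in Δ133p53α1 (-1.84 ± 0.512, adjusted p = 0.0406), Δ133p53α8 (-2.14 ± 0.517, 0.0166) and Δ133p53β5 (-1.85 ± 0.565, 0.0466), a direction that the rule favoured. ADAMTSL4 fell in all 5 lines (-2.12, -1.58, -2.18, -2.39 and -1.67). Without control replicate 3 the values were -1.35, -1.67 and -1.39 (adjusted p = 0.192, 0.0995 and 0.195), and each antisense call was also lost without other libraries.

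RNF157-AS1 and RNF157, which encodes a RING ubiquitin ligase, fell together in the Δ133p53β lines. RNF157-AS1 had 343, 358, 496 and 246 reads in control, 87, 86 and 39 in Δ133p53β5 and 104, 86, 51 and 111 in Δ133p53β10, with no overlap. The log2 fold change was -2.20 ± 0.397 in Δ133p53β5 (adjusted p = 0.00125) and -1.90 ± 0.352 in Δ133p53β10 (0.0012), and RNF157 fell too (-2.1 and -1.66). In the Δ133p53α lines RNF157-AS1 values were -1.11, -1.25 and -1.30, short of the fold threshold. The highest adjusted p over the alternatives was 0.0157 in Δ133p53β5 and 0.00642 in Δ133p53β10, and both calls held.

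PCDHB1-AS1, in the protocadherin cluster of chromosome 5, fell in 4 lines while its sense gene was not measurable. It had 112, 142, 189 and 150 reads in control and no more than 71 in any library of a line, so the groups did not overlap. The log2 fold change was -1.95 ± 0.364 in Δ133p53α1 (adjusted p = 0.00218), -1.68 ± 0.358 in Δ133p53α8 (0.00643). It was -1.53 ± 0.394 (0.0178) for Δ133p53β5 and -1.82 ± 0.361 (0.00229) for Δ133p53β10, and in Δ133p53α2 it was -1.37 (0.0242), under the fold threshold. The call in Δ133p53β5 was lost without any of control replicates 3 and 4 and Δ133p53β5 replicates 2 and 3 (-1.33 to -1.54), and with the library set as a term (-1.25). PCDHB1 itself had at most 2 reads in a library. Of the exonic bases of PCDHB1-AS1, 60.7% also lie in exons of other genes of that locus, PCDHB1 included.

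TTN-AS1 was lower in a single line. It covers 25511 exonic bases opposite TTN, the giant muscle protein gene titin, and 54.9% of these are exonic in TTN. Reads were 115, 259, 375 and 211 in control and 37, 16, 6 and 8 in Δ133p53α1, and between 73 and 266 in the other lines. The 4 Δ133p53α1 libraries were below all others. TTN-AS1 fell by 3.61 (SE 0.471, adjusted p = 5.12e-05) and TTN by 3.49 (SE 0.473, adjusted p = 7.95e-05) in Δ133p53α1. In the other 4 lines TTN-AS1 values were between -0.79 and -0.44, with adjusted p from 0.219 to 0.697. The difference between Δ133p53α1 and the other lines was not tested.

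NNT-AS1 and NNT, head-to-head genes whose promoter windows are printed above, both fell in Δ133p53α1 and Δ133p53α2. NNT encodes the mitochondrial transhydrogenase that makes NADPH. NNT-AS1 had 149, 114, 168 and 104 reads in control, 36, 26, 21 and 27 in Δ133p53α1 and 15, 50, 47 and 59 in Δ133p53α2, all below control. It fell by 1.99 (SE 0.315, adjusted p = 0.000489) in Δ133p53α1 and by 1.54 (SE 0.307, adjusted p = 0.00314) in Δ133p53α2, and NNT was at -2.63 (0.0033) and -1.98 (0.02), both called. NNT also fell in Δ133p53β10 (-1.67, adjusted p = 0.0343), where NNT-AS1 was at -0.71 (0.131). The Δ133p53α2 call of NNT-AS1 was lost without control replicate 3 (-1.44, adjusted p = 0.0101) and without Δ133p53α2 replicate 1 (-1.31, 0.00819), and when only the groups compared were fitted (adjusted p = 0.0611).

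ZNF793-AS1 and the zinc finger gene ZNF793 start 183 bases apart in GENCODE, share 6.69% of antisense exonic bases, and were both lower in the Δ133p53β lines. ZNF793-AS1 had 156, 124, 113 and 137 reads in control, 35, 47 and 44 in Δ133p53β5 and 22, 35, 22 and 27 in Δ133p53β10, and the groups did not overlap. It had passed the count rule through control and Δ133p53α libraries only. It fell by 1.5 (SE 0.288, adjusted p = 0.00197) in Δ133p53β5 and by 2.16 (SE 0.269, adjusted p = 2e-05) in Δ133p53β10. ZNF793 fell in both lines (-2.87 and -3.20) and also (-1.95) in Δ133p53α1, where ZNF793-AS1 was at -0.45 (adjusted p = 0.248). Although both genes were lower in these lines, their deviations from the line means ran against each other over the 23 libraries (Pearson r = -0.57, a description). Within lines, libraries with a positive length trend were 0.33 lower in ZNF793-AS1 and 0.95 higher in ZNF793 (log2 CPM) than those with a negative one. The Δ133p53β5 call lay at the threshold and was lost without control replicate 1 (-1.45), control replicate 4 (-1.45) or Δ133p53β5 replicate 1 (-1.35).

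TRIM52-AS1 showed the opposite arrangement, an antisense transcript that rose next to a sense gene that did not pass. The annotated starts of TRIM52-AS1 and TRIM52, the gene of a RING-type ubiquitin ligase, are 19 bases apart and no exonic base is shared. TRIM52-AS1 had 283, 160, 176 and 121 reads in control and 253, 549, 790 and 374 in Δ133p53β10, which overlapped by 1 library. TRIM52-AS1 rose by 1.63 ± 0.437 in Δ133p53β10 (adjusted p = 0.0205), and TRIM52 was at -0.27 (0.572). The within-line correlation of the pair was -0.78, and TRIM52-AS1 was 1.03 lower and TRIM52 0.59 higher in libraries with a positive length trend. With the set as a term the rise was 1.03 (adjusted p = 0.00735), under the fold threshold. The call was also lost without any of control replicates 2, 3 and 4 and without Δ133p53β10 replicate 3 (1.25, adjusted p = 0.0963).

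**Figure D2:**
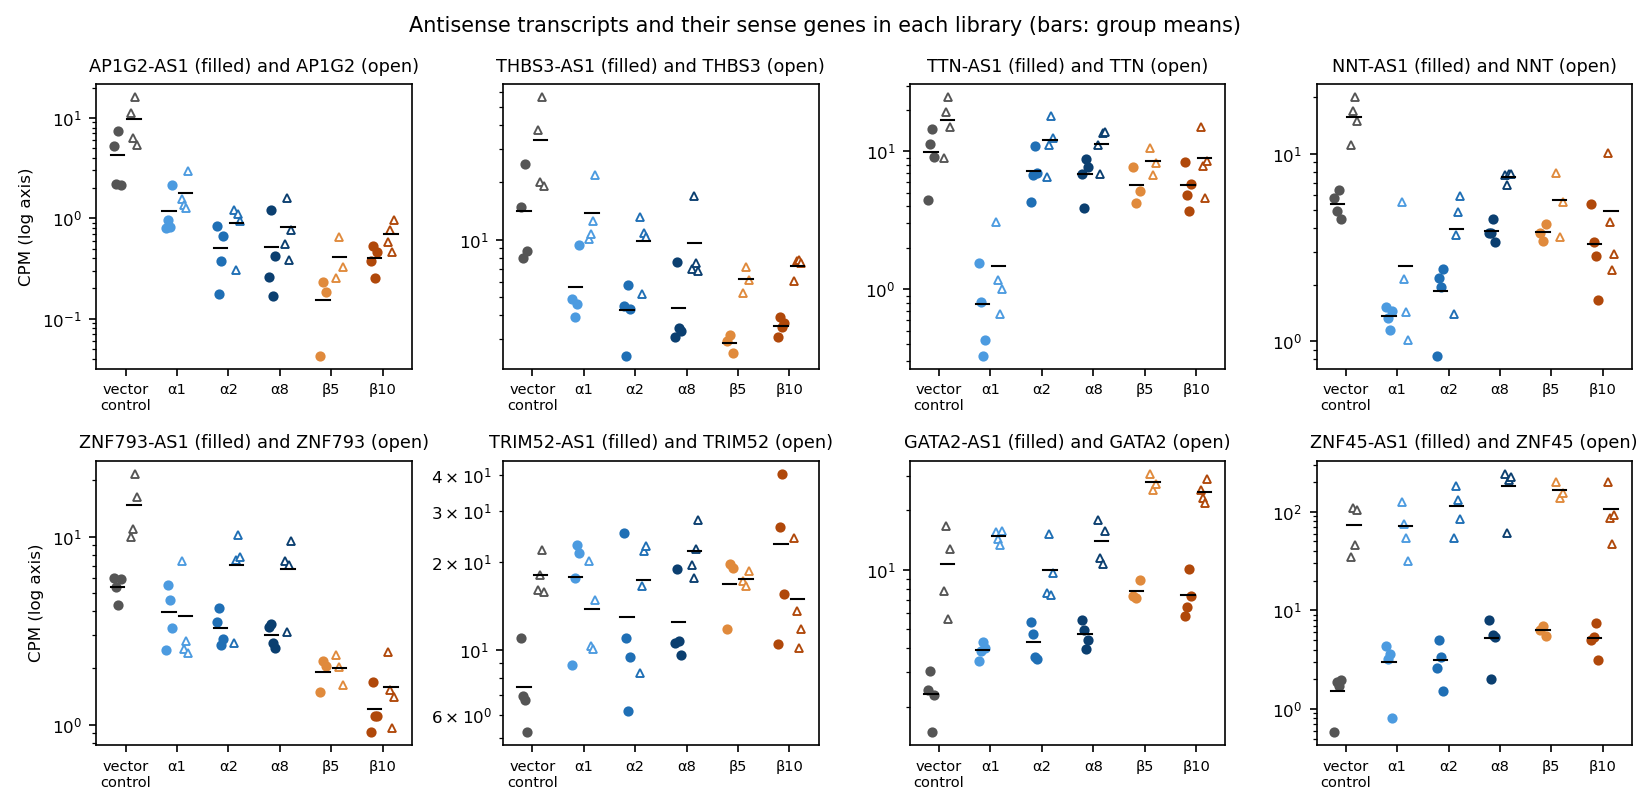
Level of 8 antisense transcripts (filled circles) and their sense genes (open triangles) in each library, in CPM on a log axis, with bars at the group means. The AP1G2 and THBS3 pairs were lower in the lines, the TTN pair only reached its low level in Δ133p53α1, and GATA2-AS1 and ZNF45-AS1 were higher in both Δ133p53β lines.

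RHPN1-AS1, BCAN-AS1 and DNAAF3-AS1 also fell. RHPN1-AS1, head-to-head with RHPN1 and sharing no exonic base with any gene, fell in Δ133p53α2. Its reads were 91, 101, 86 and 87 in control and 15, 25, 13 and 27 in Δ133p53α2, and from 29 to 62 in the other lines. The log2 fold change was -2.06 ± 0.271 (adjusted p = 4.36e-05), and that of RHPN1 -1.14 (0.291). BCAN-AS1, head-to-head with the gene of the proteoglycan brevican, fell in Δ133p53β5 (-1.56, adjusted p = 0.0284) and Δ133p53β10 (-1.55, 0.0146), but without control replicate 3 (239 reads, against 46 to 106 in the other control libraries) the values were -0.94 and -0.89. DNAAF3-AS1 and DNAAF3, an assembly factor of ciliary dynein arms, fell in Δ133p53β5 (-2.02, adjusted p = 0.0239, and -1.87, 0.0385). This antisense call was lost in 5 of 7 fits that left out a library, with adjusted p up to 0.148.

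CBR1-AS1 is opposite CBR1, the gene of carbonyl reductase 1, and shares 35.9% of its exonic bases with it. It had 642, 629, 367 and 529 reads in control, 199, 174 and 189 in Δ133p53β5 and 126, 177, 131 and 246 in Δ133p53β10, and both lines were below control. It fell by 1.54 (SE 0.238, adjusted p = 0.000202) in Δ133p53β10 and was at -1.40 (adjusted p = 0.00163) in Δ133p53β5, under the fold threshold. CBR1 was at -1.15 and -1.12. Without any of 5 libraries the Δ133p53β10 value was -1.35 to -1.49, past the adjusted p but not the fold.

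ICAM4-AS1 fell in 1 line and rose in another. It covers ICAM4, a blood group adhesion molecule of red cells, within the ICAM cluster of chromosome 19 (10285801 to 10289019, minus strand). Reads were 55, 25, 47 and 36 in control, 2, 5, 2 and 4 in Δ133p53α2 and 86, 174, 286 and 146 in Δ133p53β10, with no overlap between these 3 groups. It fell in Δ133p53α2 (-3.45 ± 0.508, adjusted p = 0.000142) and rose in Δ133p53β10 (2.30 ± 0.412, 0.000867). In Δ133p53α1, Δ133p53α8 and Δ133p53β5 the values were 0.87, 0.64 and 0.88, with adjusted p from 0.183 to 0.525. ICAM4 had at most 2 reads in a library and was not tested. Of the exonic bases of ICAM4-AS1, 70% also lie in exons of other genes, ICAM4 included.

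GATA2-AS1 had the smallest adjusted p among the members that rose in a line. It starts 3989 bases from GATA2, a zinc finger transcription factor of blood stem cells, and shares 2.69% of its exonic bases with it. Reads were 63, 70, 39 and 53 in control, 172, 155 and 190 in Δ133p53β5 and 139, 134, 198 and 177 in Δ133p53β10. All libraries of the Δ133p53α lines, 75 to 129 reads, lay between these groups. GATA2-AS1 rose by 1.75 ± 0.247 in Δ133p53β5 (adjusted p = 0.000104) and by 1.68 ± 0.234 in Δ133p53β10 (7.28e-05), and was at 0.75, 0.89 and 1.02 in the Δ133p53α lines. GATA2 was at 1.38 (adjusted p = 0.00531) and 1.22 (0.00783) in the Δ133p53β lines, short of the fold threshold. Both GATA2-AS1 calls held under all alternatives.

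ZNF45-AS1 lies opposite the zinc finger gene ZNF45 and shares no exonic base with any gene. It had 15, 43, 44 and 45 reads in control, 186, 43, 131 and 126 in Δ133p53α8. Its reads were 148, 151 and 118 in Δ133p53β5 and 121, 111, 147 and 75 in the Δ133p53β10 clone. In CPM, all 3 lines were above control, by little in Δ133p53α8 (lowest library 2.01, highest control library 1.95). No control library had 50 reads, so the rule favoured this direction. ZNF45-AS1 rose by 1.78 ± 0.483 (adjusted p = 0.0371), 2.04 ± 0.510 (0.0143) and 1.78 ± 0.484 (0.0222) in these 3 lines, and ZNF45 was at 1.32 (0.179), 1.16 (0.212) and 0.53 (0.493). The Δ133p53α8 call was lost in 6 of 8 fits without a library, that of Δ133p53β5 without replicate 2 of that line (adjusted p = 0.0539), and that of Δ133p53β10 without control replicate 1 (0.0509) or Δ133p53β10 replicate 3 (0.0696).

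CENPN-AS1 rose in both Δ133p53β lines by 1.60, with adjusted p of 0.00106 and 0.000483. Its control reads were 101, 103, 53 and 74, and all 7 libraries of Δ133p53β5 and Δ133p53β10 had from 174 to 291 reads. CENPN, which encodes a centromere protein, was at 1.17 (adjusted p = 0.00139) and 1.19 (0.000533), under the fold threshold. CENPN-AS1 was at 1.49 (adjusted p = 0.00119) in Δ133p53α2, with 167 to 271 reads, and at 1.14 (0.0133) in Δ133p53α8, so the higher level was not confined to the Δ133p53β lines. The set of libraries as a term put CENPN-AS1 at 1.49 and 1.47, and leaving out control replicate 3 at 1.42 and 1.46, with adjusted p of 0.00484 and 0.00222.

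TRHDE-AS1 rose in Δ133p53α2 (1.56 ± 0.337, adjusted p = 0.0065) and Δ133p53α8 (1.77 ± 0.339, 0.00255). TRHDE, the ectoenzyme that degrades thyrotropin-releasing hormone, rose in Δ133p53α8 (1.70, adjusted p = 0.0309) and was at 1.47 in Δ133p53α2 (0.0608). TRHDE-AS1 had 49, 74, 59 and 66 reads in control, 75, 185, 205 and 227 in Δ133p53α2 and 231, 119, 193 and 267 in Δ133p53α8, all above control. The reads of TRHDE in the same libraries were alike, for example 62, 65, 70 and 74 in control. The Δ133p53α2 call was lost without control replicate 1 (1.44) and without Δ133p53α2 replicate 4 (1.46).

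DSP-AS1 had the largest rises in Δ133p53α1 and Δ133p53α2, from low counts and as a member that the rule kept without any control library. Its reads were 4, 12, 9 and 14 in control, 36, 49, 52 and 38 in Δ133p53α1 and 75, 26, 34 and 41 in Δ133p53α2, without overlap. DSP-AS1 rose by 2.44 ± 0.633 (adjusted p = 0.0275) and 2.35 ± 0.632 (0.0307), and DSP, the desmosomal plaque gene desmoplakin, was at 1.20 (0.251) and 1.96 (0.119). Leaving out control replicate 1, 2 or 3 raised the adjusted p above the threshold in both lines (0.0544 to 0.0917), as did leaving out Δ133p53α1 replicate 2, 3 or 4 or Δ133p53α2 replicate 1 (0.0526 to 0.131).

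PPP1R14B-AS1, VPS9D1-AS1 and ZNF32-AS1 rose in lines whose libraries mostly had a negative length trend. PPP1R14B-AS1, opposite a phosphatase inhibitor gene, rose in Δ133p53α1 (1.87, adjusted p = 0.0231) and Δ133p53β10 (1.88, 0.0132), and was 1.00 lower in libraries with a positive than in those with a negative trend. With the set as a term it was at 1.27 and 1.26, under the fold threshold. VPS9D1-AS1 rose in Δ133p53α1 (1.56, adjusted p = 0.0499), next to VPS9D1 at 1.16, and was at 1.08 with the set as a term (0.0827). ZNF32-AS1 and ZNF32 rose in Δ133p53β10 by 1.98 (adjusted p = 0.0313) and 1.53 (0.00695), and ZNF32-AS1 was at 1.27 with the set as a term. Each of these calls was also lost without Δ133p53α1 replicate 3 or Δ133p53β10 replicate 3, where the adjusted p was 0.0627 to 0.172.

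The remaining calls were in the Δ133p53β lines. CALCRL-AS1, opposite a receptor subunit gene for calcitonin peptides, rose in Δ133p53β5 (1.72 ± 0.329, adjusted p = 0.00195), with reads of 129, 113 and 107 against 23, 34, 50 and 48 in control. TM4SF19-AS1 rose in Δ133p53β10 (1.72 ± 0.375, adjusted p = 0.00482) together with TM4SF19, a membrane protein gene of the L6 family. TM4SF19 had only 3 to 9 reads in control and 19 to 34 in Δ133p53β10, and 0, 1, 0 and 0 in Δ133p53α8, where it was called lower. TM4SF19 was also called higher in Δ133p53α2 (2.16, adjusted p = 0.00404) and Δ133p53β5 (1.97, 0.0103), where TM4SF19-AS1 was at 1.27 (0.0504) and 1.23 (0.0581). Chosen only because they were called, SERTAD4-AS1 rose in Δ133p53β5 (1.68, adjusted p = 0.0094) and ENTPD3-AS1 (1.68, 0.0239), which also had no control library with 50 reads, and ZFHX4-AS1 (1.56, 0.00118) in Δ133p53β10. SERTAD4 and ZFHX4 were at 0.71 and -0.59 in these lines, and ENTPD3, an ectonucleotidase gene, had at most 6 reads in a library. With the set as a term SERTAD4-AS1 was at 1.44 and ENTPD3-AS1 at 1.10. TRIM52-AS1, BCAN-AS1, CBR1-AS1 and CENPN-AS1, described above, were also named only for being called.

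Between the isoforms, 1 member passed, ICAM4-AS1, which was higher in the Δ133p53β lines by 2.24 ± 0.278 (log2, adjusted p = 2.35e-05). This is 0.227% of the members, beside 1.39% of all genes (0.596% higher and 0.793% lower). The difference joined a low level in Δ133p53α2 (0.144 CPM ± 0.06) with a high level in Δ133p53β10 (8.14 ± 4.70). Levels were 3.03 ± 1.39 in Δ133p53α1, 2.57 ± 0.760 in Δ133p53α8 and 3.04 ± 0.482 in Δ133p53β5, so these 3 clones overlapped across the isoforms. ZNF793-AS1 (-1.16, adjusted p = 0.000449), TM4SF19-AS1 (1.39, 0.00131), ZFHX4-AS1 (1.08, 0.00116), GATA2-AS1 (0.83, 0.00186) and CBR1-AS1 (-0.85, 0.00275) passed the adjusted p but not the fold. Of all members 12 had an adjusted p under 0.05 at any fold, beside 4.76% of all genes.

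The 5 most abundant members in control were RPL30-AS1 (852 CPM ± 176), VIM-AS1 (829 ± 178), PCBP1-AS1 (397 ± 56.1), PXN-AS1 (371 ± 61.4) and MIF-AS1 (189 ± 92.6), each opposite a highly expressed gene. None was called, although VIM-AS1 passed the adjusted p in Δ133p53α8 (-0.98, 0.00914) and Δ133p53β5 (-0.97, 0.0135). PCBP1-AS1, opposite the gene of an RNA-binding protein, had 11235, 10038, 8280 and 9226 reads in control, and PCBP1 had 11432, 10322, 8289 and 9576. Over the 23 libraries the reads of PCBP1-AS1 were from 96.3% to 100% of those of PCBP1, and the within-line correlation was 1.00. The pair shares 1264 exonic bases, which are 73.2% of the exonic bases of PCBP1 but 3.76% of those of PCBP1-AS1.

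RPL30-AS1 had from 71.9% to 83.1% of the reads of the ribosomal protein gene RPL30, PXN-AS1 from 58.0% to 69.3% of those of the focal adhesion gene paxillin, and MIF-AS1 from 143% to 169% of those of the cytokine gene MIF. These ratios varied little although the reads of RPL30 ranged from 18009 to 58288 and those of MIF from 988 to 5845. VIM-AS1, which starts inside vimentin, 1777 bases from its start, and runs back across that start, varied more, from 12.9% to 30.1%. Its within-line correlation with VIM was 0.57, against 0.97 to 1.00 for the other 4 pairs.

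**Figure D3:**
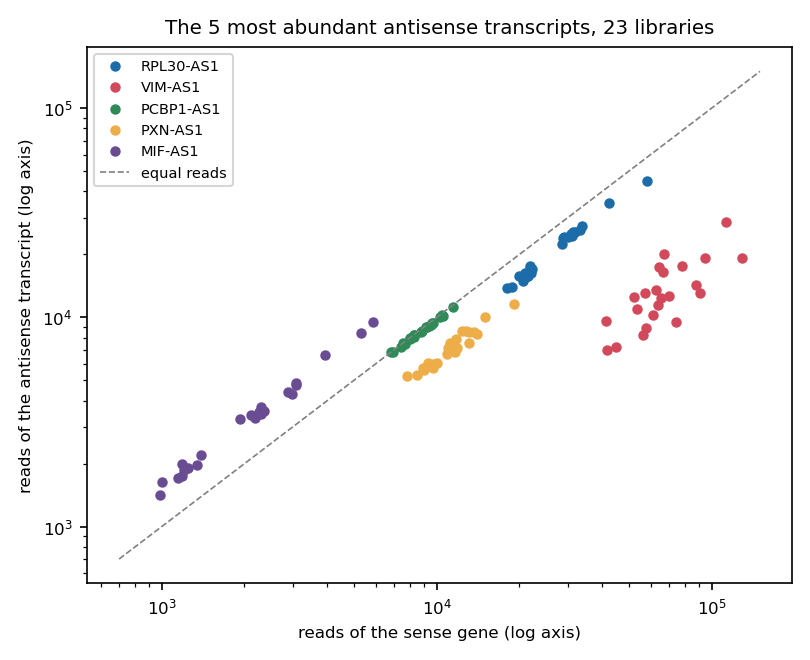
Reads of the 5 most abundant antisense transcripts against reads of their sense genes in 23 libraries, both on log axes, with a dashed line of equal reads. PCBP1-AS1 lies on the line, MIF-AS1 above it, and RPL30-AS1 and PXN-AS1 run parallel to it below.

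Antisense and sense levels ran closer together where more exonic bases were shared, in classes chosen after the data were seen. Where no exonic base was shared (43 tested pairs), the median within-line correlation of log2 CPM over the 23 libraries was -0.02. It was 0.52 where over 0 to 10% of the antisense exonic bases were shared (130 pairs), 0.71 for over 10 to 25% (113), 0.83 for over 25 to 50% (74) and 0.89 for over 50% (50). The points are pairs measured in the same libraries, with common depth and length trends, and the values are descriptions. In the 17 head-to-head pairs without a shared exonic base the median was 0.06, and in the 26 such pairs with starts farther apart it was -0.05.

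Fold changes were also closer in pairs with a larger shared part, but not in strict order of the classes. The rank correlation of antisense and sense log2 fold changes was 0.16, 0.28, 0.57, 0.24 and 0.09 in the 5 lines, in the order used above, for pairs without a shared exonic base. For pairs that shared over 50% it was 0.78, 0.79, 0.86, 0.65 and 0.65, for over 25 to 50% 0.83, 0.81, 0.82, 0.75 and 0.74, and over all 417 tested pairs 0.63, 0.65, 0.65, 0.52 and 0.50. The median size of the difference between both fold changes narrowed from 0.54 to 0.28 in Δ133p53α1 and from 0.65 to 0.31 in Δ133p53β10 (log2).

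The reads of most overlapping members were no fewer than the sense gene alone would bring. If reads of the sense gene fell evenly over its exonic bases and those on shared bases were also counted for the antisense transcript, 116 of 130, 93 of 113, 60 of 74 and 45 of 50 members, from the least to the most shared, had at least that many reads. The libraries were made with dUTP, which keeps strand, but the strand setting of the counting and its handling of reads on overlapping genes are not given in the sources used here. Reads of an antisense transcript and of its sense gene on shared exonic bases therefore cannot be told apart in these counts. Of the 27 called members, 21 shared exonic bases with the sense gene and 6 did not: BCAN-AS1, TRIM52-AS1, RHPN1-AS1, ZNF45-AS1, CALCRL-AS1 and ZFHX4-AS1.

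**Figure D4:**
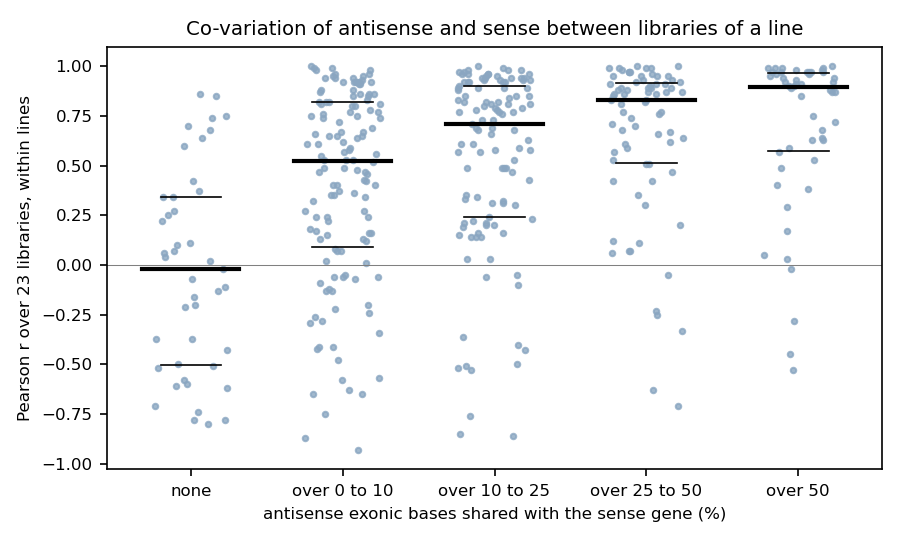
Pearson correlation of antisense and sense log2 CPM within lines over 23 libraries (1 point per pair, scattered sideways), by the share of antisense exonic bases shared with the sense gene, with thick bars at the medians and thin bars at the quartiles. The medians run from -0.02 without shared bases to 0.89 above 50%.

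**Figure D5:**
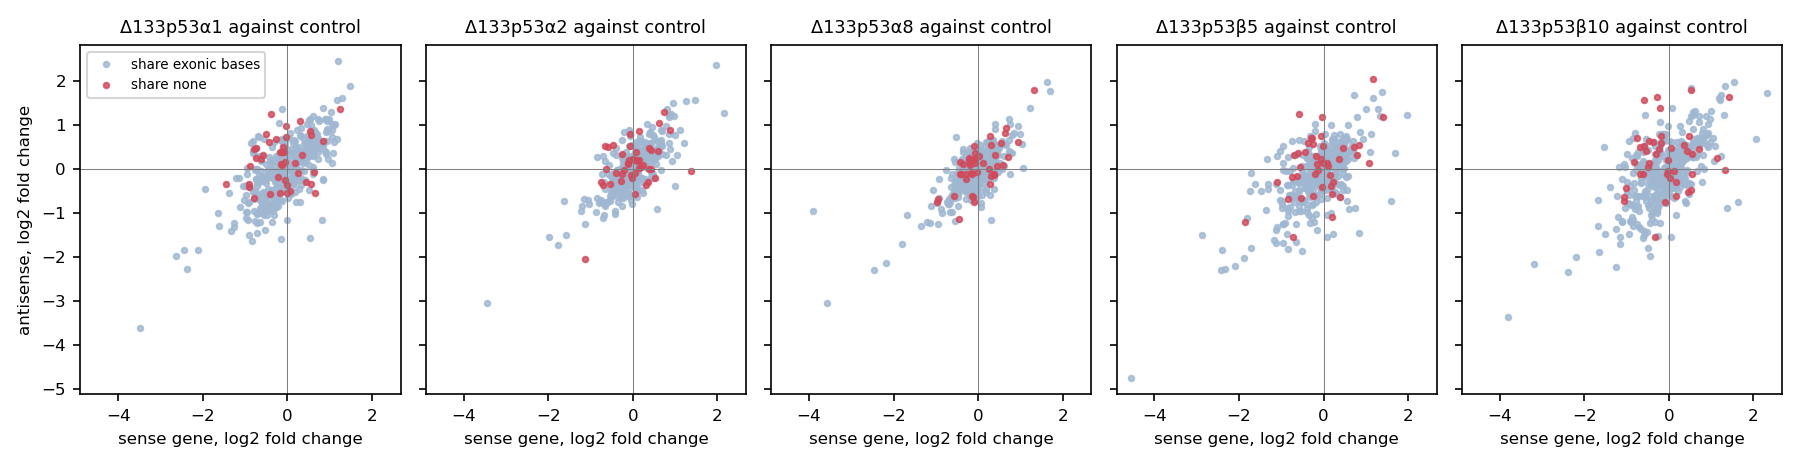
Log2 fold change against control of antisense transcripts (vertical) and sense genes (horizontal) in each line, for 410 annotated pairs with both genes tested. Pairs that share exonic bases (blue) lie along a diagonal, and pairs that share none (red) scatter around the origin.

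Whether an antisense transcript and its sense gene changed by different amounts was tested for 28 pairs in each line by an exact two-sided permutation test over libraries of the difference of log2(CPM + 0.5). The smallest p this design allows is 0.0286 with 4 libraries in a line and 0.0571 with 3, unadjusted over 140 tests. In Δ133p53β10, NNT (antisense to sense 1.03 higher than in control) and THBS3 (0.26) reached 0.0286. The AP1G2 ratio was higher in the 5 lines by 0.68 to 0.76. It is among the 140 tests, but its p-values are left out as no evidence. The rule kept AP1G2-AS1 through control alone, and the pseudocount draws a ratio of its low levels toward 0, the direction of these differences. In Δ133p53β5, the ratios of VPS9D1, TTN, ZNF793, TRIM52 and CENPN did not overlap with control, at the smallest p of 0.0571. The 28 pairs were chosen mostly for their calls and the ratios of other pairs were not tested, so no share over all pairs can be set beside this. The ratio of NNT-AS1 to NNT was also higher in the other 4 lines, by 0.55 to 0.98 (exact p from 0.0857 to 0.114).

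Other transcripts named by their position to a coding gene were counted for comparison. Of 56 tested symbols ending in -AS2, -AS3 or -AS, 4, 2, 3, 4 and 4 were called in the 5 lines, which is 3.57% to 7.14%. Of 285 divergent transcripts (symbols ending in -DT) 1, 3, 2, 5 and 5 were called, or 0.351% to 1.75%. Over all tested genes the share called was 2.53% to 4.73%, and the shares of these classes were not tested against it. None of 6 tested intronic (-IT1) and 2 overlapping (-OT1) transcripts was called by edgeR, and at an unadjusted p under 0.05 there were at most 2 in a line.

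Genes of the machinery that degrades antisense RNA were also counted. Among 24 genes of the nuclear exosome and RNA turnover, 0 were called in any line by edgeR, with 4 to 9 genes at an unadjusted p under 0.05 and up to 4 at an adjusted p under 0.05. Over all 18295 genes, 2.53% to 4.73% were called in a line. An adjusted p under 0.05 was reached by 4.51% to 9.81%, and an unadjusted one by 2784 to 5015 genes. At such shares few calls could arise among 24 genes, so their absence is no result about this machinery. EXOSC7, an exosome core subunit, had the highest value in Δ133p53β10 (1.21, adjusted p = 0.0199). Of the genes that sense or process double-stranded RNA, 2 are given by their values. DDX58, a cytosolic RNA sensor, was at -1.10 in Δ133p53β10 (adjusted p = 0.00218), and OAS3 was between -1.21 and -0.57 in the 5 lines without passing.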

How the data were processed

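Libraries were prepared by the authors with poly(A) selection and dUTP, and the reads were aligned to GRCh38 (HISAT2) and summed per gene (featureCounts, Ensembl gene models). The deposited table holds raw counts per gene symbol. A row without a name had 0 reads. Counts were tested with edgeR 4.0.16 in R 4.3.3 (TMM normalization, filterByExpr by group, 1 quasi-likelihood fit of 6 groups, 23 libraries and 17 residual degrees of freedom, Benjamini-Hochberg over 18295 genes, holding at least 99.88% of the counts). CPM were scaled by TMM. DESeq2 1.42.0, limma 3.58.1 (voom) and other settings were alternatives. Depth and counting error limit low values: a count of 0 allows up to 3. Library pairs of a line differed beyond sampling noise (lowest chi-square per degree of freedom 15.8). The procedure was tested on simulated data. Named members were up to 3 risers and 3 fallers per line, pairs called together, up to 5 per direction between isoforms and the 5 most abundant; 7 called members fell outside. The members and lists were chosen with earlier results of these data known, and the classes of shared exonic bases after seeing the data. Exonic overlap was taken from GENCODE version 44 on GRCh38, promoters from RefSeq (GRCh38.p14), in which 24 of the 32 members described were found. Certain genes are not reported here.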

Additional observations from a re-analysis of the deposited data

Results flagged for a closer look

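In groups of 4 libraries, the gap between an extreme library and its nearest neighbour was compared with the whole range of the group for the antisense transcripts described. Of 160 such groups 12 exceeded the 95% critical value, where chance alone gives about 1 in 20. Replicate 2 of Δ133p53α8, the only library of that line with a negative length trend, stood above the others in ADAMTSL4-AS1 (1.35 CPM), THBS3-AS1 (7.60), DNAAF3-AS1 (4.90), PXN-AS1 (404) and TRIM52-AS1 (19.0). Control replicate 1, the only control library with a negative trend, was the lowest in ZNF45-AS1 (0.581 CPM) and the highest in MIF-AS1 (328). Replicate 1 of Δ133p53α2, likewise alone in its trend, was the highest in ADAMTSL4-AS1 (2.23) and MIF-AS1 (368). Single libraries also stood apart in AP1G2-AS1 (Δ133p53α1 replicate 4, 2.13 CPM), CALCRL-AS1 (Δ133p53β10 replicate 1, 4.04) and VIM-AS1 (control replicate 3, 1095). The part of the library sets in these values was not tested. Between the isoforms, ICAM4-AS1 was flagged because its log2 difference of 2.24 between the Δ133p53β and Δ133p53α lines passed the test of that difference.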

How the results depend on the processing

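The number of called members depended on the fold threshold and on single libraries. With a linear fold change of 1.5 it was 16 (Δ133p53α1), 19 (Δ133p53α2), 12 (Δ133p53α8), 27 (Δ133p53β5), 32 (Δ133p53β10) and 11 (between the isoforms), and over all genes it was 870, 945, 813, 1449, 1731 and 722 instead of 472, 514, 463, 782, 866 and 254. With genes of a mean of at least 1 CPM it was 269, 294, 274, 486, 523 and 125 genes, and with only the groups compared 295 genes in Δ133p53α2 and 429 in Δ133p53β10. In Δ133p53α1 it was 11 with DESeq2 and 4 with the replicate number as a block, and in Δ133p53β10 it was 10 when only the groups compared were fitted. Between the isoforms it was 2 with the library set as a term and 2 with the unassigned library counted in Δ133p53β5 or in Δ133p53β10. Leaving out each library gave 3 to 37 members in Δ133p53α1 (37 without Δ133p53α1 replicate 1, 3 without control replicate 2 or 3 or Δ133p53α1 replicate 2 or 3), 6 to 8 in Δ133p53α2, 3 to 8 in Δ133p53α8 (3 without control replicate 3), 7 to 13 in Δ133p53β5 (7 without Δ133p53β5 replicate 3), 10 to 28 in Δ133p53β10 (28 without Δ133p53β10 replicate 1, 10 without Δ133p53β10 replicate 3) and 1 between the isoforms. Over all genes, calls were 1606 without Δ133p53α1 replicate 1, 314 without Δ133p53α1 replicate 2 or 3, 460 without Δ133p53β5 replicate 3 and 1301 without Δ133p53β10 replicate 1. The cause was not tested. Where no number over all genes is given beside a count of members, a change of the members cannot be told from one of all genes. Correlations between the deviations of same-numbered libraries ran from -0.88 to 0.889, so these libraries did not all deviate together. Since some of these correlations were high, the range cannot settle whether the numbers pair samples. The block ended 8 of the 51 calls of single members. No call changed sign under any setting, 21 held under all settings, and 30 were lost under at least 1, of which 21 were lost without control replicate 3, 15 with only the groups compared and 10 with the library set as a term. Members with few reads, such as DSP-AS1 and AP1G2-AS1, have the least certain values.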
